A study of Mus musculus with 15 samples.

Results

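Matrix metalloproteinases are zinc-dependent proteases that cut collagens, elastin, proteoglycans and other parts of the extracellular matrix, and tissue inhibitors of metalloproteinases (TIMPs) bind their active sites and block them. Most are secreted as inactive proenzymes that other proteases open, while MMP14 is held in the plasma membrane. In the liver these proteases are known for remodelling scar matrix, macrophages being a known source of MMP12 and MMP13, and TIMP1 is known as an inhibitor made by activated hepatic stellate cells. Transcripts of 10 such genes, 7 proteases (Mmp2, Mmp8, Mmp9, Mmp12, Mmp13, Mmp14 and Mmp19) and 3 inhibitors (Timp1, Timp2 and Timp3), were described here in mouse liver macrophages. They were a named list, found on the arrays through the RefSeq accessions of their probes, out of 20141 genes that the arrays could name. All 10 passed the filter on dim probes, which required a signal well above background on at least 4 of the 5 arrays of some group.

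The study compared 3 groups of 5 one-colour Agilent arrays, 15 in all. WT_SD held CD11c-negative macrophages of wildtype male mice on standard diet. MC4R_WD CD11c-negative and MC4R_WD CD11c-positive held macrophages of male MC4R-KO mice, which lack the melanocortin 4 receptor that restrains feeding and which received Western diet for 20 weeks from the age of 8 weeks. The cells were sorted from collagenase-digested livers as F4/80-high and then by CD11c, an integrin encoded by Itgax, and each sample was RNA pooled from 7 to 9 mice. Genotype and diet differed together between WT_SD and both MC4R_WD groups, so the effect of either cannot be told apart from that of the other. MC4R_WD CD11c-positive differed from WT_SD in the CD11c sort as well, so that comparison joins sort, genotype and diet. Wildtype age was not stated, and nothing in the labels says that the 5 samples of a group came from separate pools. The spread behind each p-value is thus that of these samples and could be technical.

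A level is given here as log2 of the background-subtracted signal minus log2 of the array's 75th percentile, so that 0 is the 75th percentile of that array and 1 unit is a 2-fold difference. The 75th percentile lay between 359 and 562 signal units, and 45.8% to 58.0% of spots were well above background. The sort marker Itgax had mean levels of 4.21 ± 0.03 in WT_SD, 5.93 ± 0.07 in MC4R_WD CD11c-negative and 7.29 ± 0.03 in MC4R_WD CD11c-positive (SD, n = 5 each). It was highest in the CD11c-positive sort. WT_SD and MC4R_WD CD11c-negative, both sorted as CD11c-negative, lay further apart than the MC4R_WD groups. Adgre1, which encodes F4/80, was at 7.34, 7.74 and 7.31. No array gave a signal well above background for Mc4r, so the knockout could not be checked. A gene was called where the Benjamini-Hochberg adjusted p of limma's moderated test was under 0.05 over 13386 genes. The arrays were tight, with a median SD of a gene of 0.0751, 0.0888 and 0.07 in the 3 groups in the order above. Calls were accordingly common: 76.8% of all genes tested were called between MC4R_WD CD11c-negative and WT_SD, 53.2% between the MC4R_WD groups and 77.6% between MC4R_WD CD11c-positive and WT_SD. Counts of members are therefore also given for genes called with a difference of at least 2-fold, which made up 11.4%, 2.85% and 13.7% of all genes.

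In MC4R_WD CD11c-negative against WT_SD, all 7 proteases rose, 6 of them by at least 2-fold. Of the inhibitors Timp1 rose 8.11-fold, Timp3 fell 2.13-fold, and Timp2 was called 1.12-fold higher, a direction that turned under 2 other scalings. That made 9 members higher and 1 lower, against 48.3% and 28.5% of all genes. By at least 2-fold, 7 members were higher and 1 was lower, beside 5.18% and 6.22% of all genes. The median log2 difference of the 10 members was 1.44, beside 0.13 over all genes tested. No array of one group overlapped the other group for any of the 10, as for 64.1% of all genes.

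Within the MC4R_WD livers the family divided. Against MC4R_WD CD11c-negative, MC4R_WD CD11c-positive had higher Mmp2, Mmp12, Mmp13, Mmp14 and Mmp19 and lower Mmp8, Mmp9 and Timp3. Timp1 and Timp2 were not called. The 5 higher and 3 lower members stand beside 29.9% and 23.2% of all genes. At 2-fold, 1 was higher (Mmp12) and 2 were lower (Mmp8 and Mmp9), beside 1.66% and 1.19% of all genes. The median member difference was 0.16 and that of all genes 0.01. For 8 members the 2 sets of arrays were fully apart, beside 39.6% of all genes.

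Between MC4R_WD CD11c-positive and WT_SD, 8 members were higher (Timp2 not under 2 other scalings) and 2, Mmp9 and Timp3, were lower, beside 51.4% and 26.3% of all genes. By at least 2-fold, 7 were higher and 1 was lower, beside 6.66% and 7.02%. The median was 1.63, and 0.16 over all genes. The 10 members again did not overlap, as did not 69.3% of all genes. The 3 comparisons share their groups, so each is a view of the same 15 arrays.

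**Figure D1:**
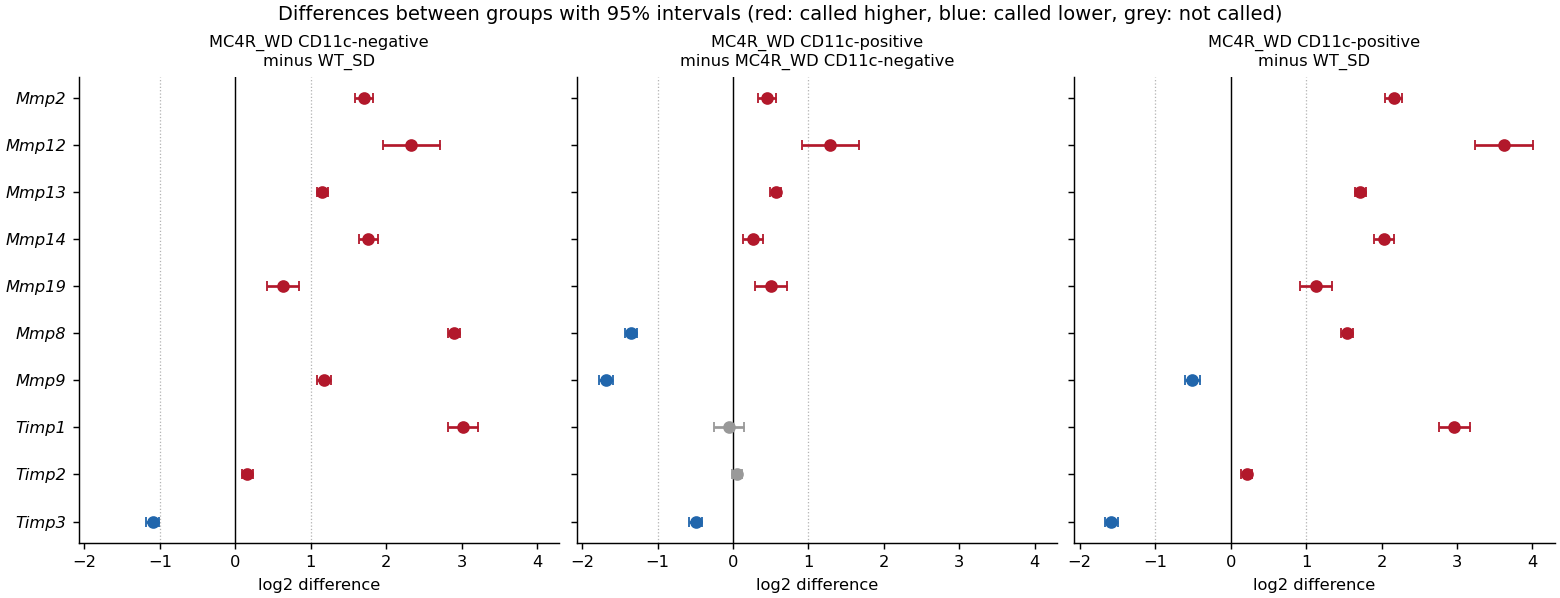
Log2 difference of each of the 10 genes in the 3 comparisons (horizontal axis), with the 95% interval from limma's fit as a bar; dotted lines mark 2-fold. Red points were called higher, blue lower and grey not called: Mmp8 and Mmp9 lie right of 0 against WT_SD in the left panel and left of 0 in the middle panel, while Timp1 and Timp2 are the 2 grey points.

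Mmp2, Mmp12, Mmp13, Mmp14 and Mmp19 followed the order WT_SD, MC4R_WD CD11c-negative, MC4R_WD CD11c-positive, with every neighbouring pair called. Mmp12, the macrophage elastase, had the largest difference of these 5 in each comparison. On the WT_SD arrays it was at -0.46, 0.54, -0.65, -0.52 and -0.64. It reached 1.91, 1.91, 1.95, 2.16 and 2.01 in MC4R_WD CD11c-negative, and 3.25, 3.17, 3.31, 3.36 and 3.29 in MC4R_WD CD11c-positive. The 3 groups stood clear of each other, and WT_SD replicate 2 stood above the other 4 arrays of its group. The first step was 2.33 ± 0.18 (log2 difference ± SE, 5.04-fold, adjusted p 1.6e-08) and the second 1.29 ± 0.18 (2.45-fold, adjusted p 2.7e-05), 12.3-fold in all. Without WT_SD replicate 2 the first step was 2.56 and the whole difference 3.85. The second step stayed at 1.29, and its adjusted p became 5.4e-10. The fit shares its estimate of the spread among the groups, so the WT_SD spread also entered the SE of the second step. Within slide 1 and slide 2, the 2 glass slides that carried the arrays, the first step was 2.11 and 2.66 and the second 1.29 and 1.24.

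A dimmer Mmp12 probe gave the same order, with means of -4.60, -2.99 and -1.39. On that probe WT_SD replicate 2, at -4.51, lay inside the range of its group, which was -5.17 to -4.21. Only 1 of the 5 WT_SD arrays was well above background there, against 3 and 5 in the other groups. The median signal of the brighter spot on that array was 657 units, and on the other 4 WT_SD arrays 287.5 to 381. It carried no outlier mark.

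**Figure D2:**
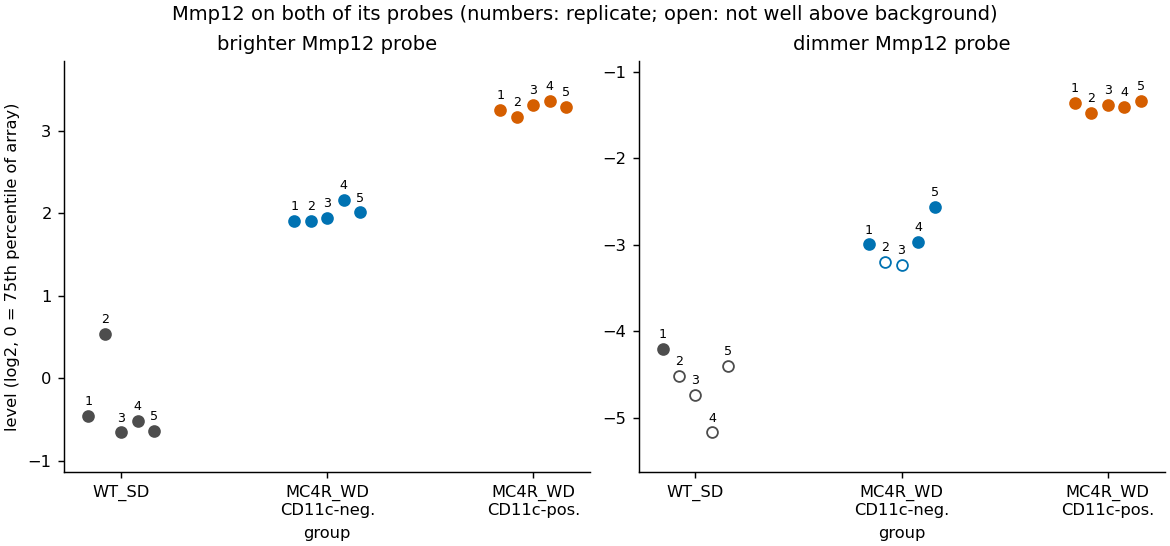
Level of Mmp12 (vertical axis, log2 with 0 at the 75th percentile of the array) on its brighter and its dimmer probe, 1 point per array, numbered by replicate; open points were not well above background. WT_SD replicate 2 stands apart at 0.54 on the brighter probe and within its group at -4.51 on the dimmer probe.

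Mmp13, the main interstitial collagenase of rodents, rose in smaller steps over a narrow spread. Its WT_SD levels were 1.11, 1.05, 1.06, 1.11 and 1.17. In MC4R_WD CD11c-negative it was at 2.23, 2.32, 2.15, 2.26 and 2.29, and in MC4R_WD CD11c-positive at 2.82, 2.81, 2.84, 2.85 and 2.77. The lowest array of each group was above the highest of the group before it. The steps were 1.15 ± 0.03 (2.22-fold, adjusted p 4.6e-13) and 0.57 ± 0.03 (1.48-fold, adjusted p 5.8e-09), and 1.16 and 0.58 on slide 1 against 1.14 and 0.55 on slide 2.

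Mmp12 and Mmp13 are neighbours in the metalloproteinase cluster of chromosome 9, in the order Mmp13, Mmp12, Mmp1b, Mmp3, Mmp1a, Mmp10, Mmp8, Mmp27, Mmp20 and Mmp7 (RefSeq, GRCm38). Of these 10 genes, Mmp13, Mmp12, Mmp8 and Mmp7 passed the filter. The probes of Mmp1b, Mmp3, Mmp1a, Mmp10 and Mmp20 were well above background on at most 1 array, and Mmp27 had no probe named here. The cluster thus held both patterns of the family, since Mmp8 ran against Mmp12 and Mmp13 between the MC4R_WD groups. The 250 bases before the start of the 3 genes are shown so that the neighbours can be compared (RefSeq, GRCm38.p6, plus strand, 5′ to 3′). Capitals mark matches to the AP-1 site TGANTCA, the TATA box TATAAA or the GC box GGGCGG, each sought on both strands. Mmp13 is at chr9:7272264-7272513, Mmp12 at chr9:7347124-7347373 and Mmp8 at chr9:7558179-7558428.
Mmp13: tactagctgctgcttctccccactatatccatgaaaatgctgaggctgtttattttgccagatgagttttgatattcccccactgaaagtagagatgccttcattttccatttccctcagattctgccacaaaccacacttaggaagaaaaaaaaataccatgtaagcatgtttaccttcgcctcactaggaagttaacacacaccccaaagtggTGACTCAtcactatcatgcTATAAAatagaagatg
Mmp12: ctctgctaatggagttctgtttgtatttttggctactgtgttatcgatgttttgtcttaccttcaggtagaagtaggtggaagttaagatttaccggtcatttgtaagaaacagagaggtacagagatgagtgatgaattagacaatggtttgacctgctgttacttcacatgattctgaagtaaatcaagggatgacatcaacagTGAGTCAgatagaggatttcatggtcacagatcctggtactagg
Mmp8: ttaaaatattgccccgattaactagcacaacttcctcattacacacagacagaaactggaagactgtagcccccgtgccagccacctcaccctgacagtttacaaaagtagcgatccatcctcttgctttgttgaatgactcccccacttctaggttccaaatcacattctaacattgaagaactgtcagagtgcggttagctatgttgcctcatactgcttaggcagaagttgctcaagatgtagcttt
Mmp13 held TGACTCA beginning 35 bases before its start and a TATA box beginning 16 bases before it. In the window shown, Mmp12 held TGAGTCA beginning 44 bases before the start. A further window for Mmp12, from another listed start, held no match, so the Mmp12 match depends on the start taken. The letters of the AP-1 site occurred in 6.75% and TATAAA in 12.4% of the 32851 windows of the same length in the table. The Mmp8 window held no match to any of the 3 motifs. A match is a run of letters and was not measured as a bound site.

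Mmp14 encodes a membrane-bound protease that cuts fibrillar collagen and opens the proenzyme of MMP2, a gelatinase encoded by Mmp2. Both had their main step between WT_SD and the MC4R_WD groups. Mmp14 was at -0.28, -0.23, -0.31, -0.09 and -0.11 in WT_SD. It was at 1.5, 1.47, 1.47, 1.70 and 1.65 in MC4R_WD CD11c-negative, and at 1.74, 1.72, 1.88, 1.92 and 1.88 in MC4R_WD CD11c-positive. The MC4R_WD groups lay close together, with the lowest CD11c-positive array just above the highest CD11c-negative array. The steps were 1.76 ± 0.06 (3.40-fold, adjusted p 2.4e-12) and 0.27 ± 0.06 (1.20-fold, adjusted p 0.002), the second being 0.25 on slide 1 and 0.22 on slide 2.

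Mmp2 levels were -0.87, -0.93, -0.91, -0.73 and -0.76 in WT_SD, all below the 75th percentile of their array. They were 0.91, 0.86, 0.73, 0.93 and 0.92 in MC4R_WD CD11c-negative, and 1.23, 1.24, 1.34, 1.43 and 1.37 in MC4R_WD CD11c-positive. No group overlapped another. Mmp2 rose by 1.71 ± 0.05 (3.27-fold, adjusted p 9.8e-13) and then by 0.45 ± 0.05 (1.37-fold, adjusted p 7.7e-06). On slide 1 and slide 2 the first step was 1.74 and 1.67, the second 0.40 and 0.46.

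Mmp19, a protease of basement membrane proteins, was low on every array. It was at -2.52, -2.91, -2.60, -2.88 and -2.65 in WT_SD and at -1.99, -2.24, -2.30, -1.94 and -1.95 in MC4R_WD CD11c-negative. In MC4R_WD CD11c-positive it was at -1.55, -1.83, -1.53, -1.56 and -1.42. The groups did not overlap, although their spread was wider than that of Mmp13. The steps were 0.63 ± 0.10 (1.55-fold, adjusted p 4.0e-05) and 0.51 ± 0.10 (1.42-fold, adjusted p 0.00061). With normexp background correction they were smaller, at 0.33 and 0.21, and still called; by slide they were 0.50 and 0.49 on slide 1 and 0.82 and 0.44 on slide 2.

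**Figure D3:**
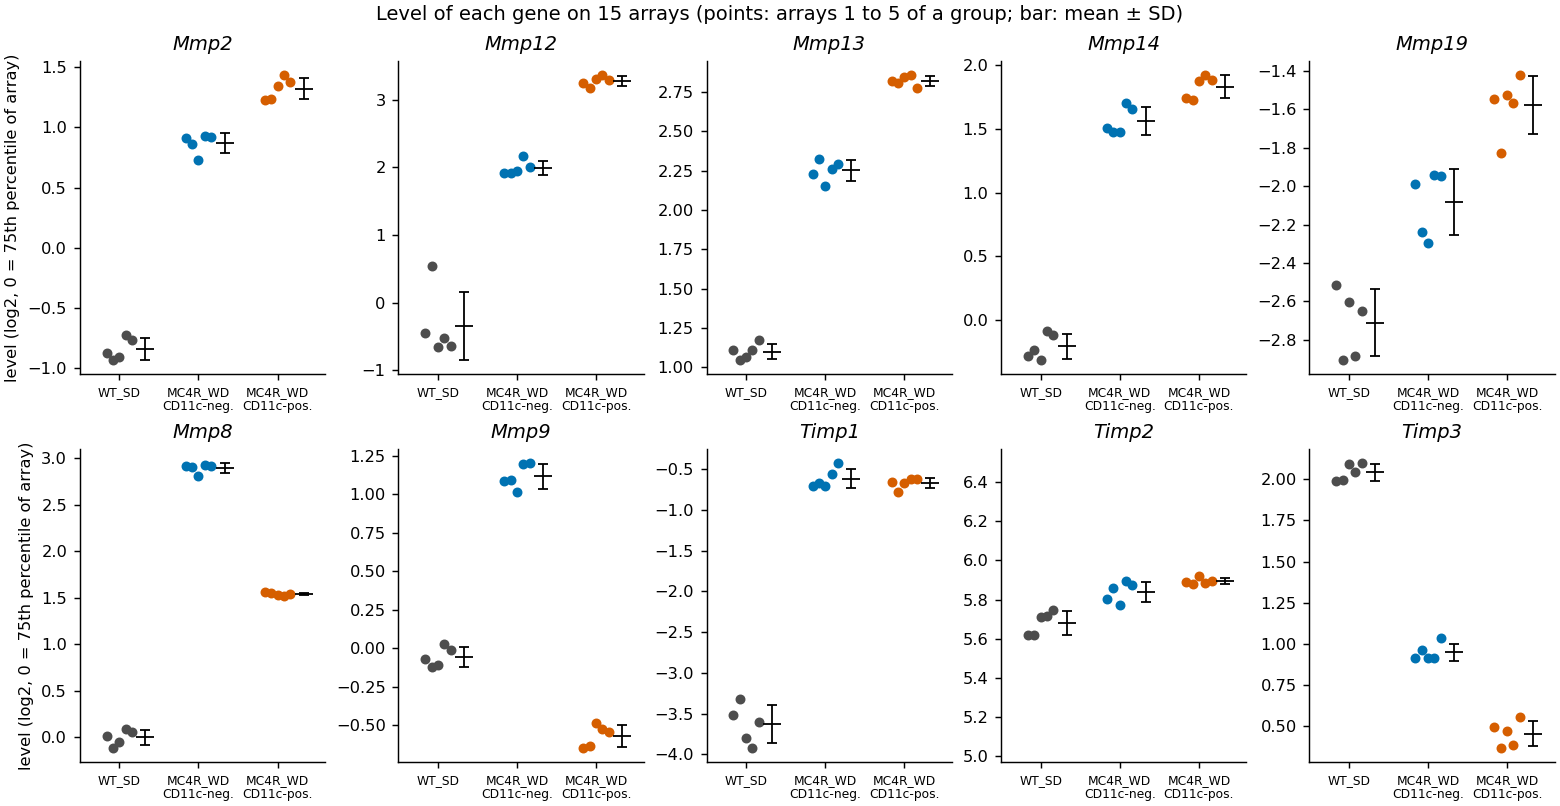
Level of each gene (vertical axis, log2 with 0 at the 75th percentile of the array) on 15 arrays, 1 point per array in the order of the replicate numbers, with the mean and SD of each group as a bar; each panel has its own scale. Mmp2, Mmp12, Mmp13, Mmp14 and Mmp19 step up from left to right, Mmp8 and Mmp9 peak in MC4R_WD CD11c-negative, Timp1 is level between the MC4R_WD groups and Timp3 steps down.

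Mmp8 and Mmp9 were highest in MC4R_WD CD11c-negative. Mmp8, the collagenase stored in neutrophil granules, was at 0.02, -0.11, -0.05, 0.09 and 0.05 in WT_SD. It was at 2.92, 2.90, 2.81, 2.93 and 2.92 in MC4R_WD CD11c-negative and at 1.56, 1.56, 1.53, 1.53 and 1.54 in MC4R_WD CD11c-positive. The CD11c-positive arrays thus lay between the other groups without touching either. Mmp8 was 7.44-fold higher in MC4R_WD CD11c-negative than in WT_SD (2.90 ± 0.04, adjusted p 4.5e-17). It was 2.56-fold lower in MC4R_WD CD11c-positive than in MC4R_WD CD11c-negative (-1.35 ± 0.04, adjusted p 7.7e-13), by -1.32 on slide 1 and -1.39 on slide 2.

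Mmp9, a gelatinase also found in neutrophil granules, was the protease that ended below WT_SD. Its WT_SD levels were -0.07, -0.12, -0.11, 0.03 and -0.01. The MC4R_WD CD11c-negative arrays had 1.08, 1.09, 1.01, 1.20 and 1.20, and the MC4R_WD CD11c-positive arrays -0.65, -0.63, -0.49, -0.52 and -0.54. Every CD11c-positive array was below every WT_SD array. Mmp9 was 2.26-fold higher in MC4R_WD CD11c-negative than in WT_SD (1.17 ± 0.05, adjusted p 8.8e-12), 3.21-fold lower in MC4R_WD CD11c-positive than in MC4R_WD CD11c-negative (-1.68 ± 0.05, adjusted p 7.3e-13) and 1.42-fold lower than in WT_SD (-0.51 ± 0.05, adjusted p 9.2e-08). Slides 1 and 2 gave -1.70 and -1.72 between the MC4R_WD groups. The Mmp9 probe was printed on 10 spots of each array, and the SD of those spots, 0.0439 to 0.132, was small beside these differences.

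Neutrophil markers as a set had the order of Mmp8. They went with Mmp9 in the comparisons that hold MC4R_WD CD11c-negative, but not between MC4R_WD CD11c-positive and WT_SD. Of 13 markers 12 were measured (Ly6g had no probe named here), and each of the 12 was well above background on some array of every group. Their summed signal, in multiples of the array's 75th percentile, was 416 to 436 in WT_SD, 1589 to 1740 in MC4R_WD CD11c-negative and 648 to 682 in MC4R_WD CD11c-positive. In MC4R_WD CD11c-negative 11 of 12 rose against WT_SD, with a median difference of 3.55, and 11 of 12 fell from there to MC4R_WD CD11c-positive, with a median of -1.91. Mpo, the granule peroxidase, rose by 5.58 ± 0.04 and then fell by 2.26 ± 0.04, and Ngp, another granule protein, rose by 5.26 ± 0.04. Csf3r, the receptor of granulocyte colony-stimulating factor, fell by 0.40 ± 0.03 from WT_SD to MC4R_WD CD11c-negative. In MC4R_WD CD11c-positive against WT_SD 10 of the 12 were higher and 2 lower, beside 51.4% and 26.3% of all genes. Their median difference there was 1.66, while that of Mmp9 was -0.51. Of 8 monocyte markers 7 were measured, and their summed signal had the same order, with 76.4 to 82.5 in WT_SD, 169 to 185 in MC4R_WD CD11c-negative and 98.8 to 105 in MC4R_WD CD11c-positive. Against WT_SD 4 of the 7 rose and 1 fell in MC4R_WD CD11c-negative (median 0.72), and from there to MC4R_WD CD11c-positive 2 rose and 5 fell (median -0.46). Of all genes 48.3% rose and 28.5% fell in the first of these comparisons, and 29.9% and 23.2% in the second. Cd177, a surface protein also known from neutrophils, rose by 3.43 ± 0.15 and then fell by 1.92 ± 0.15, and Chil3, a chitinase-like protein, rose by 3.33 ± 0.04 and then fell by 1.43 ± 0.04. The part of neutrophil or monocyte RNA in the Mmp8 and Mmp9 differences was not tested, and in sorted bulk samples a change in the number of cells of a type and a change of RNA per cell cannot be told apart.

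Timp1 rose as one step shared by both MC4R_WD groups. It was at -3.51, -3.32, -3.80, -3.92 and -3.61 in WT_SD, where 4 of the 5 arrays were well above background. It was at -0.70, -0.67, -0.71, -0.56 and -0.43 in MC4R_WD CD11c-negative and at -0.65, -0.77, -0.66, -0.62 and -0.62 in MC4R_WD CD11c-positive. The MC4R_WD groups overlapped, and both lay far above WT_SD. Timp1 was 8.11-fold higher in MC4R_WD CD11c-negative (3.02 ± 0.09, adjusted p 7.4e-13) and 7.81-fold higher in MC4R_WD CD11c-positive (2.97 ± 0.09, adjusted p 6.9e-13) than in WT_SD. These sizes depended on the processing. With normexp background correction they were 1.67 and 1.58, and with quantile normalization 3.08 and 3.06. The WT_SD signal was dim, and its part in this was not tested. Between the MC4R_WD groups the difference was -0.05 (95% interval -0.26 to 0.15, adjusted p 0.66); with normexp correction it was -0.09 with an adjusted p of 0.048.

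Timp3, the inhibitor that stays bound to the matrix, fell in both steps. WT_SD arrays had 1.99, 1.99, 2.09, 2.04 and 2.10. The level was 0.91, 0.96, 0.92, 0.92 and 1.03 in MC4R_WD CD11c-negative, and 0.49, 0.37, 0.47, 0.39 and 0.56 in MC4R_WD CD11c-positive. The 3 groups did not overlap, in the reverse of the order seen for Mmp2, Mmp12, Mmp13, Mmp14 and Mmp19. Timp3 was 2.13-fold lower in MC4R_WD CD11c-negative than in WT_SD (-1.09 ± 0.04, adjusted p 4.5e-12) and a further 1.41-fold lower in MC4R_WD CD11c-positive (-0.49 ± 0.04, adjusted p 1.3e-07). On slides 1 and 2 the second step was -0.50 in each.

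Markers of other liver cells are given beside Timp1 and Timp3. All 11 markers of sinusoidal endothelial cells were measured, and their summed signal was 374 to 408 in WT_SD, 225 to 240 in MC4R_WD CD11c-negative and 154 to 162 in MC4R_WD CD11c-positive, the order of Timp3. Of these markers 9 fell against WT_SD in MC4R_WD CD11c-negative, where Ehd3 fell by 2.19 ± 0.04, and 8 of 11 were lower in MC4R_WD CD11c-positive than in MC4R_WD CD11c-negative. The 8 hepatocyte markers had that order too, with a summed signal of 90.5 to 100.1, 40.8 to 45.0 and 30.5 to 33.3. Of these 6 fell and 1 rose from WT_SD to MC4R_WD CD11c-negative, where Serpina1a fell by 1.35 ± 0.04, and 7 fell from there to MC4R_WD CD11c-positive. Of 14 markers of hepatic stellate cells and fibroblasts 11 were measured, with a summed signal of 8.05 to 8.74, 11.6 to 12.7 and 9.05 to 9.47. In MC4R_WD CD11c-negative against WT_SD 7 of the 11 rose and 3 fell. The collagen and proteoglycan genes were among those that rose, Col1a1 by 1.41 ± 0.08 and Lum by 1.34 ± 0.05. Lrat, which makes the retinyl esters stored in stellate cells, fell by 1.05 ± 0.21, and Rgs5, a pericyte gene, fell by 1.04 ± 0.13, their probes being well above background on 3 and 4 of the 5 MC4R_WD CD11c-negative arrays and their differences with other processing being as small as -0.38 and -0.51. From MC4R_WD CD11c-negative to MC4R_WD CD11c-positive 2 of the 11 rose and 5 fell. Des and Reln were well above background on no array. The 10 Kupffer cell markers had the order of Timp3 too, with a summed signal of 2523 to 2751 in WT_SD. Their sum was 1616 to 1778 in MC4R_WD CD11c-negative and 1270 to 1390 in MC4R_WD CD11c-positive. The part of these cell types in the Timp1 and Timp3 differences was not tested. Of 10 Kupffer cell markers, 8 fell and 1 rose from WT_SD to MC4R_WD CD11c-negative, where Cd163 fell by 4.88 ± 0.05. All 10 fell from there to MC4R_WD CD11c-positive, where Timd4 fell by 1.48 ± 0.04. Under the alternatives 7 to 9 fell in the first comparison, and 8 to 10 fell and 0 to 1 rose in the second. Of all genes 48.3% rose and 28.5% fell in the first, and 29.9% and 23.2% in the second. Of 8 measured markers of conventional dendritic cells, 7 fell in the first of these comparisons and 7 rose in the second, where Flt3 rose by 4.35 ± 0.05.

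Timp2, which blocks MMP2 and also takes part in its opening by MMP14, had the smallest differences of the 10 genes against WT_SD. Its levels were 5.62, 5.62, 5.71, 5.71 and 5.75 in WT_SD, 5.80, 5.86, 5.77, 5.89 and 5.88 in MC4R_WD CD11c-negative and 5.89, 5.88, 5.92, 5.89 and 5.89 in MC4R_WD CD11c-positive. The MC4R_WD groups overlapped and WT_SD lay just below them. Against WT_SD the differences were 0.16 ± 0.03 (adjusted p 0.00042) and 0.21 ± 0.03 (adjusted p 2.7e-05), and their direction depended on the scaling of the arrays. With quantile normalization they were -0.26 and -0.15, and with the 75th percentile taken over the probes detected on all arrays -0.08 and -0.04. Those scalings move the median of all genes as well, from 0.13 to 0.00 and -0.10 in the first comparison and from 0.16 to 0.05 and -0.08 in MC4R_WD CD11c-positive against WT_SD. A second, dimmer Timp2 probe gave 0.25 and 0.27 under the main scaling. Between the MC4R_WD groups the difference was 0.05 (95% interval -0.02 to 0.12, adjusted p 0.18).

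**Figure D4:**
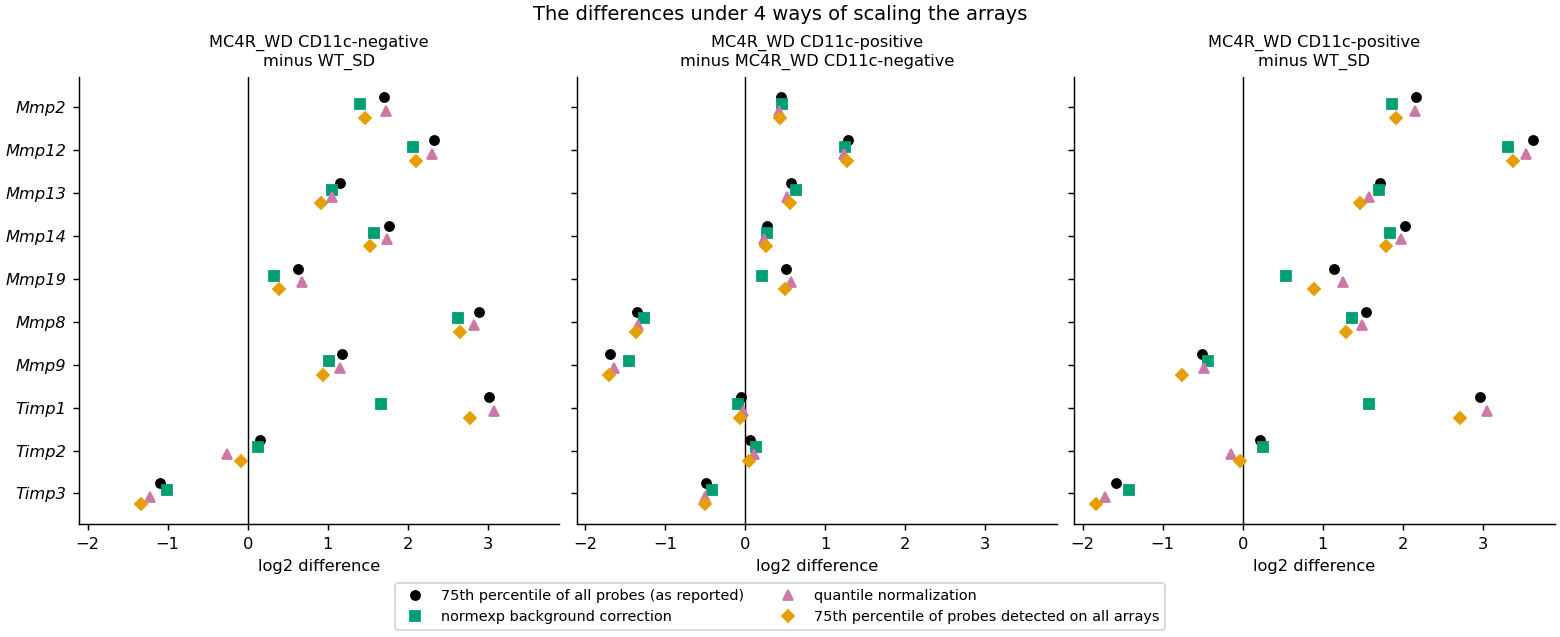
Log2 difference of each gene in the 3 comparisons (horizontal axis) under 4 ways of preparing the arrays: the reported scaling (black circles), normexp background correction (green squares), quantile normalization (pink triangles) and the 75th percentile of detected probes (orange diamonds). Timp2 is the gene whose points lie on both sides of 0 against WT_SD, and in both comparisons with WT_SD the normexp points of Timp1 and Mmp19 lie nearer to 0 than their other points.

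The inhibitor promoters are shown because Timp1 and Timp3 moved in opposite directions (RefSeq, GRCm38.p6, the 250 bases before the start, plus strand, 5′ to 3′, capitals as above). Timp1 is at chrX:20869916-20870165 and lies within the span of Syn1. Timp3 is at chr10:86300162-86300411 and lies within the span of Syn3.
Timp1: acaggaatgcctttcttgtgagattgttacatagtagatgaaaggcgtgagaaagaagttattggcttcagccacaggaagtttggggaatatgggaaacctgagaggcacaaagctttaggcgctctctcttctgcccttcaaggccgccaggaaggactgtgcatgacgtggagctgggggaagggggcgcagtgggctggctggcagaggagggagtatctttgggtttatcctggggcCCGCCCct
Timp3: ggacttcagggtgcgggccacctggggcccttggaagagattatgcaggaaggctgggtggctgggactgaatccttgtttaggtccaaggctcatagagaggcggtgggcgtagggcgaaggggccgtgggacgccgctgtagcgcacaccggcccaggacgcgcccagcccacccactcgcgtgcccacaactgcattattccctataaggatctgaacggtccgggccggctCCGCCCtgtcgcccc
Both held 1 GC box, as CCGCCC on the reverse strand, beginning 8 bases before the start of Timp1 and 15 before that of Timp3. The letters GGGCGG on either strand were in 32.7% of all windows. They differed in CG dinucleotides, with 6 in Timp1 and 18 in Timp3, the median over all windows being 6. Neither held the AP-1 letters seen in Mmp13 and in the printed window of Mmp12. Windows were given for 7 of the 10 members, and Mmp2, Mmp9 and Mmp19 are named only.

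Of 16 other listed metalloproteinases, 4 passed the filter. Mmp25, a membrane-anchored protease of leukocytes, was not well above background on any WT_SD array and was well above it on all 5 arrays of both MC4R_WD groups. Under the main processing its signal was at least 3.64-fold higher in MC4R_WD CD11c-negative and at least 3.23-fold higher in MC4R_WD CD11c-positive (log2 1.87 and 1.69). For this each WT_SD array was given the dimmest signal that was still called well above background, or the probe's own if that was brighter. With other processing the log2 differences of Mmp25 were as small as 0.97 and 0.77, which is below these bounds. Mmp17, another membrane-anchored member, was 0.79 ± 0.17 higher in MC4R_WD CD11c-negative than in WT_SD. Mmp23 fell by 0.87 ± 0.10 there, with alternatives from -1.11 to -0.22 and 3 of 5 MC4R_WD CD11c-negative arrays well above background. It was called higher, by 0.51 ± 0.10, from MC4R_WD CD11c-negative to MC4R_WD CD11c-positive, where its alternatives ran from -0.03 to 0.62. Mmp7, matrilysin, rose by 0.28 ± 0.09 between the MC4R_WD groups and was not called against WT_SD. Counted over the 4, 2 were higher and 1 lower against WT_SD in each MC4R_WD group. Of all genes 48.3% were higher and 28.5% lower in MC4R_WD CD11c-negative, and 51.4% and 26.3% in MC4R_WD CD11c-positive.

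Of 8 other inhibitors 2 were measured. Pzp, a protease-trapping protein, fell by 0.22 ± 0.03 from WT_SD to MC4R_WD CD11c-negative, and its difference between MC4R_WD CD11c-positive and WT_SD was -0.37 ± 0.03. Pcolce, an enhancer of procollagen processing whose fragment can inhibit metalloproteinases, had differences of -0.51 ± 0.04 and -1.01 ± 0.04. Both fell between the MC4R_WD groups as well. Timp4 and Reck, further inhibitors, did not pass the filter.

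Plasmin is a known activator of metalloproteinase proenzymes, and 8 of 10 listed genes of the plasminogen system were measured. Against WT_SD 5 rose and 3 fell in each MC4R_WD group, with a median of 0.51 and 0.44 beside 0.13 and 0.16 over all genes. Of all genes 48.3% and 51.4% rose and 28.5% and 26.3% fell in these comparisons. Anxa2, a plasminogen receptor subunit, rose by 1.52 ± 0.03 and 1.86 ± 0.03. Serpinb2, a serine protease inhibitor, differed by -1.76 ± 0.40 and -2.29 ± 0.40, its probe being well above background on 5 arrays of WT_SD, 3 of MC4R_WD CD11c-negative and 2 of MC4R_WD CD11c-positive, and with other processing its differences were as small as -0.76 and -1.12. Between the MC4R_WD groups 3 rose and 2 fell, beside 29.9% and 23.2% of all genes. Plau, urokinase, and Anxa2 each rose by 0.34 ± 0.03, and Plg, plasminogen itself, fell by 0.31 ± 0.07.

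Of 15 genes that activate or dock metalloproteinases 12 were measured, and 11 rose in MC4R_WD CD11c-negative against WT_SD (median 0.41), beside 48.3% of all genes. Under the alternatives 6 to 11 rose and 0 to 3 fell, and the median went down to 0.17. Lcn2, which binds MMP9 in neutrophils, rose by 4.49 ± 0.04 and then fell by 1.91 ± 0.04 to MC4R_WD CD11c-positive, the order of Mmp8. Cd63, a tetraspanin that binds TIMP1, rose by 3.19 ± 0.03 and 3.46 ± 0.03 against WT_SD in the 2 groups. Sdc1, a cell surface proteoglycan, rose by 1.35 ± 0.23 at each of the steps. Between the MC4R_WD groups 5 of the 12 rose and 3 fell, beside 29.9% and 23.2% of all genes. In MC4R_WD CD11c-positive against WT_SD 8 rose and 0 fell, beside 51.4% and 26.3% of all genes.

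Among the related ADAM and ADAMTS proteases, 14 of 18 were measured. Adam8, a protease of myeloid cells, rose by 1.31 ± 0.02 and again by 1.35 ± 0.02, the stepwise order of Mmp12. Adam15 rose by 1.65 ± 0.04 in MC4R_WD CD11c-negative and did not pass the test from there to MC4R_WD CD11c-positive (-0.09 ± 0.04). Adamdec1, made by tissue macrophages, fell by 1.72 ± 0.05 and then fell by 0.70 ± 0.05. Adam19 was 0.76 ± 0.03 higher in MC4R_WD CD11c-positive than in MC4R_WD CD11c-negative. In the order of the comparisons above, 8, 4 and 9 of the 14 rose and 5, 3 and 4 fell. Over all genes 48.3%, 29.9% and 51.4% rose and 28.5%, 23.2% and 26.3% fell, and the 9 became 6 under an alternative.

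Of 16 measured matrix substrates and cross-linking enzymes (23 listed), 11 rose and 3 fell in MC4R_WD CD11c-negative against WT_SD, with a median of 0.35. Over all genes 48.3% rose and 28.5% fell there, and under the alternatives 7 to 11 of the 16 rose. Col1a1, the fibrillar collagen cut by MMP8, MMP13 and MMP14, rose by 1.41 ± 0.08, and Col4a1, a basement membrane collagen, fell by 0.77 ± 0.04. From MC4R_WD CD11c-negative to MC4R_WD CD11c-positive 2 rose and 8 fell, with a median of -0.17, beside 29.9% and 23.2% of all genes. Fn1, fibronectin, rose by 0.82 ± 0.06 and Dcn, decorin, fell by 0.85 ± 0.04. In MC4R_WD CD11c-positive against WT_SD 8 rose and 4 fell, about the shares of all genes, 51.4% and 26.3%. One that was called higher was Fbn1, fibrillin, whose difference was 1.17 ± 0.18 with alternatives from 0.15 to 1.55, its probe being well above background on 1 of 5 WT_SD arrays.

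Transcription factors known to act on Mmp and Timp promoters were also counted, 18 of 19 being measured. Against WT_SD 13 rose and 3 fell in MC4R_WD CD11c-negative and 10 rose and 4 fell in MC4R_WD CD11c-positive, while 5 rose and 4 fell between the MC4R_WD groups. Over all genes 48.3% and 51.4% rose and 28.5% and 26.3% fell against WT_SD. Between the MC4R_WD groups 29.9% of all genes rose and 23.2% fell, about the shares of this list. Under the alternatives 7 to 14 rose and 2 to 7 fell in MC4R_WD CD11c-negative, and 8 to 10 rose and 3 to 8 fell in MC4R_WD CD11c-positive. The medians against WT_SD, 0.23 and 0.25, changed sign under another scaling, where they reached -0.05 and -0.06. Pparg, a nuclear receptor of lipid metabolism, rose by 1.65 ± 0.04 and 1.80 ± 0.04. Junb, an AP-1 subunit, rose by 0.84 ± 0.03 and 0.77 ± 0.03, and Ets1 differed by -0.67 ± 0.05 and -0.77 ± 0.05. Fosb, another AP-1 subunit, rose by 0.42 ± 0.04 between the MC4R_WD groups and Ets2 fell by 0.36 ± 0.03. Runx2, which binds the Mmp13 promoter in bone cells, was well above background on 0 WT_SD arrays, 1 MC4R_WD CD11c-negative array and 4 MC4R_WD CD11c-positive arrays.

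**Figure D5:**
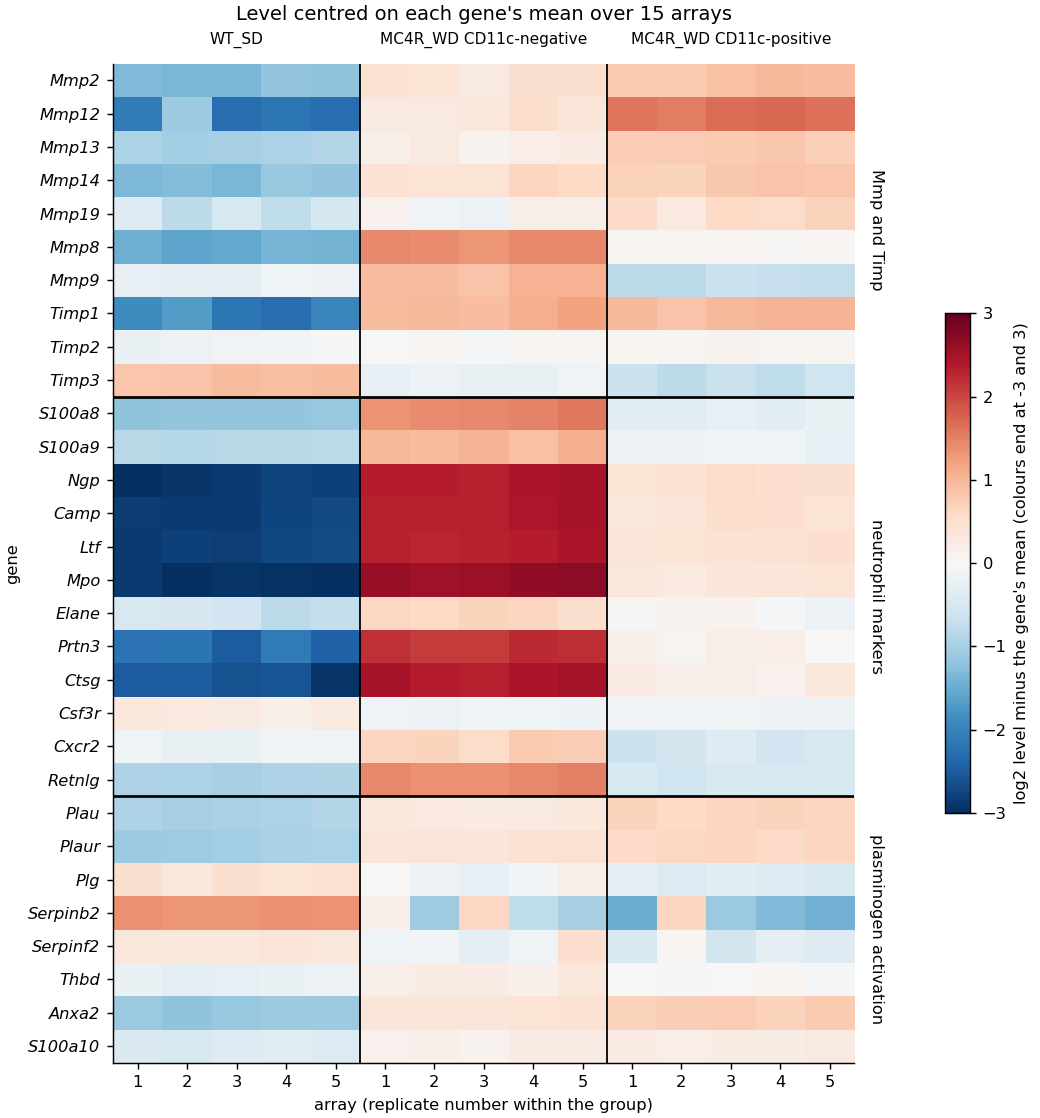
Level of each of the 10 genes, of 12 neutrophil markers and of 8 genes of the plasminogen system on the 15 arrays (columns), as the log2 level minus the gene's own mean over the arrays; the colours end at -3 and 3. Mmp8 and Mmp9 and 11 of the 12 neutrophil markers are reddest in MC4R_WD CD11c-negative, and Timp1 is blue in WT_SD and red in both MC4R_WD groups.

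The genes most like each member were found by the root mean square difference of log2 levels, each centred on its own mean, over the 15 arrays. Sema4d lay nearest to Mmp2 (0.0683), Dtx4 to Mmp14 (0.0396) and Vat1 to Mmp13 (0.0559). For Mmp12 the nearest were Atp6v0d2 (0.315), a subunit of the vacuolar proton pump, and Slc6a8 (0.351), and for Mmp13 the second was Atp6v0a1 (0.0642), another subunit of that pump. The Mmp12 distances take in WT_SD replicate 2, which stood above its group on the brighter probe, and were not computed without it. Timp2, which changed by under 2-fold, was not compared, and the nearest gene of each of the other 8 members lay at 0.149 or closer. For Mmp8 the nearest were Mrgpra2b (0.114) and Mrgpra2a (0.119), and for Mmp9 Stfa2 (0.0697) and Scrg1 (0.1). For Mmp19 it was Lrr1 (0.11) and for Timp3 Cdr2l (0.0496). For Timp1 it was Apoa4 (0.149), whose WT_SD signal was near background on all 5 arrays.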

How the data were processed

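Each sample was hybridised to an Agilent one-colour (Cy3) mouse array, on 1 of 2 slides, after labelling of 0.1 ug RNA per the labels' protocols. Spot intensity in the deposited scanner files is, per the file headers, the background-subtracted processed signal, beside other columns of spot flags (Agilent Feature Extraction 10.7.3.1, per the submitters' processing notes). The log2 values that the authors deposited equal that signal's log2 less the array's 75th percentile and less the WT_SD median (median absolute difference 0.00146), and served as an alternative.

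Control spots (3671 of 62976) and outlier spots (113 to 190 an array) were left out, and 0 were saturated. Repeated spots were averaged, and the log2 of the 75th percentile over an array's non-control probes was subtracted. RefSeq accessions named 26576 of 55681 probes, and 28175 (17336 named) were well above background on at least 4 of 5 arrays of a group. Each of the 13386 genes is read from its brightest kept probe. The test was limma 3.58.1 (lmFit, eBayes) in R 4.3.3 (with version 1.17.8 of data.table) on all 15 arrays, without covariates, 2-sided, with Benjamini-Hochberg adjustment over all genes tested, and the scripts were tested on simulated data. Tables came from Python 3.11.15, pandas 2.3.3 and numpy 2.4.6. The number of arrays limits the precision.

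Alternatives covered the background correction (normexp, offset 50, from median signals because the files hold no mean spot signal), the scaling, the filter, the slide, replicate numbers, the choice of probe, the authors' values and each array left out. Replicate numbers were not taken to pair samples, since the labels give no shared origin. Deviations of same-numbered arrays from their group means correlated at 0.059 to 0.373 where both arrays lay on the same slide. For replicate 3 of MC4R_WD CD11c-positive, which lay on another slide than its same-numbered arrays, the correlations were -0.198 and -0.171. Members and gene lists were chosen with earlier results of these data known. The text names all members, measured genes of the lists of other metalloproteinases and inhibitors, the 2 largest called differences of every other list in each comparison with the largest in the opposite direction (for markers the 2 largest), up to 2 most similar genes of members that changed at least 2-fold, and Itgax, Adgre1 and Mc4r. Csf3r, Timp4, Reck, Des, Reln, Lrat and Rgs5 were named as exceptions after their values were seen. A gene that these rules also select is not reported here. Promoter sequences are those of RefSeq for GRCm38.p6.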

Additional observations from a re-analysis of the deposited data

Results flagged for a closer look

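Over 16 genes (the 10 members, 4 other metalloproteinases and 2 other inhibitors) and 3 groups, 5 of 48 sets of 5 arrays had an array whose gap to its nearest neighbour exceeded 0.71 of the range of the set; chance alone sets apart about 1 in 20 such sets. Mmp12 of WT_SD replicate 2 was high at 0.54, the other 4 arrays lying between -0.65 and -0.46. On all genes with complete values that array stood apart on the high side for 0.322% and on the low side for 1.5%. The dimmer Mmp12 probe did not set it apart.

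Mmp8 of MC4R_WD CD11c-negative replicate 3 was low at 2.81, against 2.90 to 2.93 on the other arrays. Timp1 of MC4R_WD CD11c-positive replicate 2 was low at -0.77, against -0.66 to -0.62. Mmp23 on the same array was low at -3.43, against -3.22 to -3.15. Mmp25 of MC4R_WD CD11c-negative replicate 4 was high at -1.95, against -2.33 to -2.28. Each of these gaps is small beside the called differences of its gene except for Mmp23, whose difference between MC4R_WD CD11c-positive and WT_SD was -0.36 ± 0.10.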

How the results depend on the processing

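Of 807 recomputed differences of the members, 800 kept their direction and their side of the threshold, 4 changed direction and 3 passed the threshold newly. All 7 concern Timp2 and Timp1. Quantile normalization turned Timp2 to -0.26 in MC4R_WD CD11c-negative against WT_SD (adjusted p 3.1e-07) and to -0.15 in MC4R_WD CD11c-positive against WT_SD, and the 75th percentile over detected probes to -0.0768 and -0.0352. Under both scalings the members called lower in MC4R_WD CD11c-negative against WT_SD were 2 in place of 1. Between the MC4R_WD groups Timp2 became called at 0.13 (normexp) and 0.11 (quantile), and Timp1 at -0.09 (normexp). Over all genes, calls that were higher made up 62.9% in MC4R_WD CD11c-negative against WT_SD, 49.0% after quantile normalization and 38.9% with the detected probes, and 66.2%, 54.4% and 41.5% in MC4R_WD CD11c-positive against WT_SD. The cause was not tested. Leaving out each array in turn left the members called higher at 9, 5 and 8 and called lower at 1, 3 and 2. The replicate block left these counts unchanged as well. Deviations of same-numbered arrays correlated between -0.198 and 0.373, and 9 of 15 arrays correlated best with their own number. Only the pairs of replicate 3 that lay on different slides correlated negatively. Neither a block for the slide nor a fit within either slide changed any member's call. Timp1 could not be tested where every array had to be well above background, since 1 WT_SD array was not. A low signal limits Timp1 and Mmp19.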
